A study of Mus musculus with 8 samples.

Results

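The 36 genes described here carry out fatty acid synthesis, triglyceride synthesis and the storage and breakdown of lipid droplets, and were chosen by name. All probes whose accession maps to 1 of these genes were taken, which gave 55 probes for 36 of the 21612 gene symbols named on the array. The cells were AML12, a mouse hepatocyte line derived from a mouse with a transgene for human TGF-α. A total of 4 control samples were cultured without irisin and 4 samples were cultured with 0.5 µg/ml irisin, the peptide cleaved from Fndc5, both for 24 h in DMEM/F-12 medium with fetal bovine serum. Cy3-labeled cRNA of each sample went to an Agilent array of its own, and the question of the comparison is which transcripts irisin changed. The labels do not say whether the samples came from separate cultures, so that p-values measure only the spread between these samples, which may be technical. As a model the line is 1 cell type with no adipose or muscle tissue beside it, and only RNA was measured.

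Hepatocytes build fatty acids from citrate: ATP citrate lyase (Acly) gives acetyl-CoA, the acetyl-CoA carboxylases (Acaca and Acacb) give malonyl-CoA and fatty acid synthase (Fasn) joins them to palmitate, with NADPH from malic enzyme (Me1) and others. Elongases (Elovl) and desaturases (Scd and Fads) then modify the chain, and acyltransferases and lipins place it on glycerol to make triglyceride, which is kept in droplets coated with perilipins, released by lipases or exported with apolipoprotein B. The transcription factors SREBP-1 (Srebf1), which answers to insulin and sterols, and ChREBP (Mlxipl), which answers to glucose, are known to drive most of these genes in liver.

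All values are the log2 of the background-subtracted signal minus the log2 of the 75th percentile of the array, so that 0 stands for a signal equal to that percentile, and differences are irisin minus control. The 75th percentile itself was 472 ± 70.1 signal units (SD, n = 4) in control and 783 ± 71.6 (SD, n = 4) with irisin. Each group had a slide and a scan of its own, and treatment cannot be told apart from slide or scan. Probes well above background made up 59.5% to 63.7% of the probes of a control array and 61.8% to 64.1% of an irisin array. Of 12 hepatocyte markers, 11 were detected on all 8 arrays: Alb, Apoa1, Apoa2, Apob, Fgb, Hnf4a, Krt8, Krt18, Serpina1a, Trf and Ttr. Cps1, the other, was detected on 1 control and 1 irisin array. Detection was not limited to this list: 4 of 5 cholangiocyte markers (Krt7, Krt19, Sox9 and Spp1) were also detected on all 8 arrays. So were Acta2, Col1a1 and Col1a2 (stellate cell and fibroblast), Kdr and Pecam1 (endothelial) and Cd68 and Csf1r (macrophage). In control the mean was 5.33 for Krt19 and 4.34 for Alb. Of 7 adipocyte markers, Adipoq, Cfd, Lep, Plin1 and Retn were detected on no array, and Cidea and Fabp4 on all 8. The summed signal of the 12 hepatocyte markers, in units of the 75th percentile, was 463 to 515 on the control arrays and 377 to 443 on the irisin arrays, lower on every irisin array. A sum weighs the brightest genes most: Krt18 (7.58 in control) and Trf (6.86) had changes of -0.467 and -0.386. Of the 11 tested hepatocyte markers 0 were called, beside 10.2% of all tested genes called down and 0.531% called up. Their changes were below 0 in 8, beside 64% of all tested genes, and above 0 in 3 (Alb 0.106, Apob 0.238 and Fgb 0.141). The summed signal of the 5 cholangiocyte markers was 55.3 to 61.9 on the control arrays and 57.9 to 60.9 on the irisin arrays. The sums were likewise lower on every irisin array for the 7 adipocyte markers (0.185 to 0.201 against 0.161 to 0.174), the 7 stellate cell and fibroblast markers (0.104 to 0.154 against 0.0707 to 0.0922) and the 4 endothelial markers (0.698 to 0.781 against 0.408 to 0.576), and overlapped for the 6 macrophage markers (0.538 to 0.635 against 0.457 to 0.542). These sums include markers detected on no array: 5 of 7 adipocyte, 4 of 7 stellate cell and fibroblast, and 2 of 4 endothelial markers. A signal that stays the same reads lower with irisin after scaling, since the 75th percentile was higher. Cdh5, at 0.97 to 1.06 signal units in control and 0.97 to 0.99 with irisin, had scaled means of -8.84 and -9.643. The detected markers weigh most in these sums. Kdr (-0.513 in control) changed by -0.558, Pecam1 by -0.61, Col1a2 by -1.08, Acta2 by -0.679, Col1a1 by 0.006, Cidea by -0.48 and Fabp4 by -0.13. Called down were 2 of 3 tested stellate cell and fibroblast markers (Acta2 and Col1a2), 1 of 2 endothelial markers (Pecam1) and no marker of the other lists. The part of these shifts in the results that follow was not tested.

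Of the 36 genes, 34 were tested, since a probe of theirs stood well above background throughout at least 1 group. As a set they lay close to the rest of the transcriptome. With limma at a change of at least 1.5-fold and an adjusted p under 0.05, 1 of 34 genes was down-regulated, Agpat1, beside 10.2% of 14310 tested genes, and 0 were up-regulated, beside 0.531%. The call on Agpat1 depends on irisin replicate 3 and on the scaling, as described with its values. At an unadjusted p under 0.05, 2 genes were higher (Gpam and Lpin1), beside 5.94% of all genes, and 4 were lower (Abhd5, Agpat1, Plin2 and Scd2), beside 23.5%. The median change of the 34 genes was -0.059, against -0.064 for all tested genes, and the changes ran from -0.66 (Agpat1) to 0.345 (Lpin1). The median change of all tested probes went with their signal. It ran from -0.513 in the dimmest of 10 deciles through 0.002 in deciles 5 and 6 to -0.204 in the brightest. Down-regulated probes numbered 1087 of 2409 in the dimmest decile, 17 of 2409 in decile 7 and 54 of 2410 in the brightest. Agpat1 lies in decile 7, and 13 of the 34 genes lay in deciles 9 and 10. The 10.2% is a share over genes of all signal levels, not of a signal like that of the 34. In bulk RNA, fewer expressing cells and less RNA per cell cannot be told apart.

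With scaling to the 75th percentile, the 95% interval of the change lay within 1.5-fold in either direction for 32 of 34 genes, beside 75.2% of all tested genes. The exceptions were Agpat1 and Lpin1. Like the 10.2%, the 75.2% is a share over genes of all signal levels, not of a signal like that of the 34. These intervals hold for this scaling and do not cover a shift common to the array, since 10 of the 34 genes were up-regulated with scaling to spike-in probes and 27 with no scaling. In 5 of 34 genes every irisin array was lower than every control array (Abhd5, Agpat1, Me1, Plin2 and Scd2), beside 19.6% of all genes, and in 1 gene every irisin array was higher (Lpin1), beside 4.14%.

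**Figure D1:**
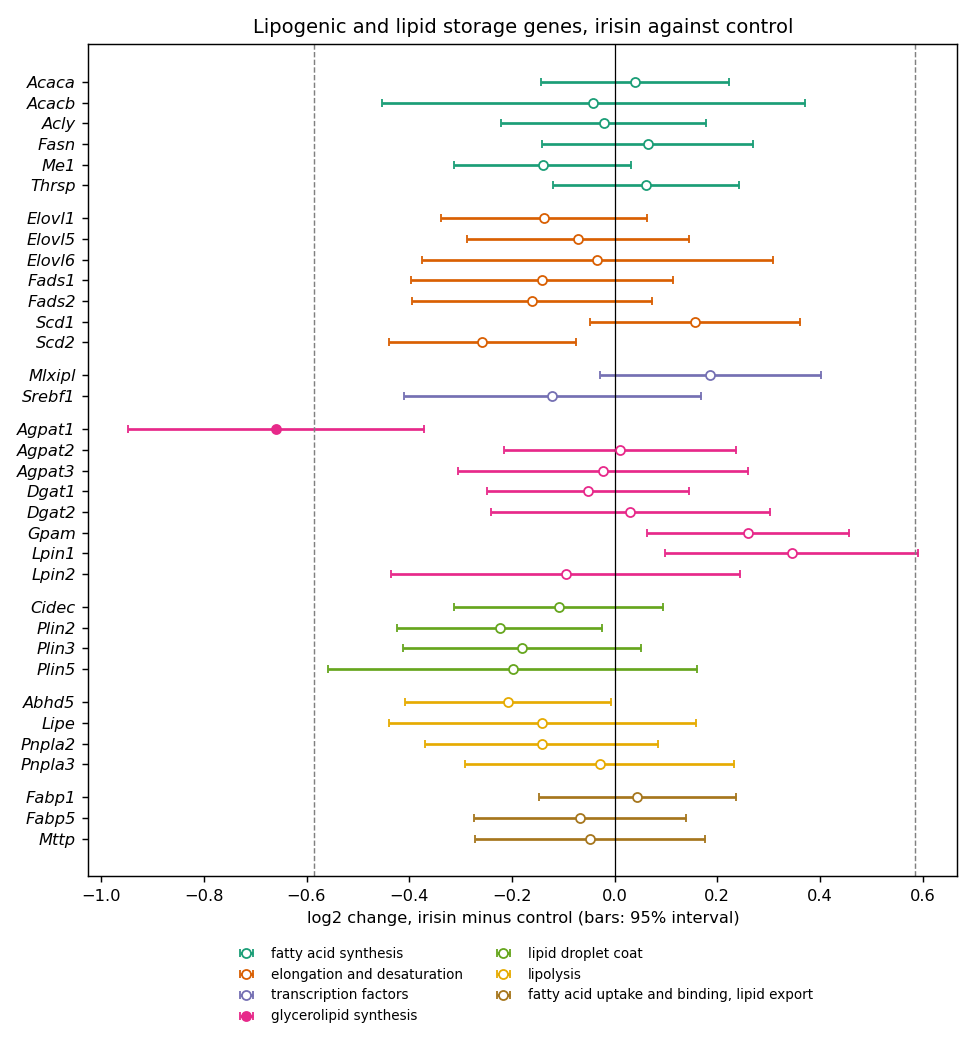
Change of the 34 tested genes on the log2 scale (horizontal axis, irisin minus control) with the 95% interval from limma, 1 gene per line and colored by role. Dashed lines mark 1.5-fold in each direction, and the filled point is Agpat1 at -0.66, the gene past both thresholds, while the open points run from -0.258 (Scd2) to 0.345 (Lpin1).

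The enzymes of fatty acid synthesis showed no call, and their 6 changes lay between -0.14 and 0.065 with a median of 0.009. Acly, which splits citrate to acetyl-CoA, read 4.57, 4.38, 4.46 and 4.42 on control arrays 1 to 4 and 4.32, 4.59, 4.35 and 4.50 on irisin arrays 1 to 4. The highest value was on irisin array 2 and the lowest on irisin array 1, so that the control values lay inside the irisin range. Acaca, the carboxylase that makes malonyl-CoA for synthesis, read 3.74, 3.68, 3.85 and 3.80 in control and 3.77, 3.88, 3.69 and 3.89 with irisin. The groups overlapped over nearly their whole range, with a change of 0.039 (95% interval -0.144 to 0.222, adjusted p = 0.795). Fasn, which assembles palmitate, read -1.35, -1.45, -1.13 and -1.38 in control and -1.38, -1.22, -1.27 and -1.18 with irisin. Control array 3 was the highest of all 8 and control array 2 the lowest, and the change was 0.065 (95% interval -0.141 to 0.27, adjusted p = 0.689). The change of Acly was -0.021 (95% interval -0.222 to 0.179, adjusted p = 0.903). Acacb, the carboxylase tied to the control of fatty acid oxidation, lay in the dimmest decile of probes and had a change of -0.041 with the widest interval of the group (-0.452 to 0.371). Thrsp, also called Spot 14 and known to follow lipogenesis, had a change of 0.061 (adjusted p = 0.662). Me1, the cytosolic malic enzyme, had a change of -0.14 (adjusted p = 0.243) at the probe of highest signal, with every irisin array below every control array, while its other probes gave 0.145 and 0.051.

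Among the elongases and desaturases, 6 of 7 changes were below 0, beside 64% of all tested genes, and none was called. The stearoyl-CoA desaturases, which make oleate and palmitoleate, gave values of opposite sign. Scd1, the main hepatic form, read -0.38, -0.33, -0.09 and -0.13 in control and -0.10, -0.05, -0.16 and 0.01 with irisin. Irisin array 4 was the highest, and control arrays 3 and 4 lay among the irisin values. Scd2, the form of development and proliferating cells, read 5.76, 5.84, 5.96 and 5.94 in control and 5.60, 5.69, 5.52 and 5.66 with irisin. All irisin values lay below all control values, by a small margin. The change of Scd1 was 0.157 (SE 0.0923, adjusted p = 0.271) and that of Scd2 was -0.258 (SE 0.0821, adjusted p = 0.043), past the adjusted p alone, which 17.9% of all tested genes passed in this direction, but short of 1.5-fold. Scd2 belongs to the brightest decile of the tested probes, whose median change was -0.204, and its change was -0.001 with quantile normalization (adjusted p = 0.996) and -0.07 with cyclic loess (adjusted p = 0.565).

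In the other genes that shape the chain the groups overlapped. Elovl1, which extends saturated very long chains, had a change of -0.137 at one probe and -0.188 at the other, and Elovl5, which extends polyunsaturated chains, of -0.071. Fads1 and Fads2, the Δ5 and Δ6 desaturases of polyunsaturated fatty acids, had changes of -0.141 and -0.161. Elovl6, which extends palmitate to stearate, read 1.15, 1.03, 1.10 and 1.07 in control and 1.17, 0.54, 1.37 and 1.14 with irisin. Its lowest and highest values were both on irisin arrays, array 2 and array 3, and the SD was 0.0486 in control and 0.358 with irisin. The mean change was -0.034 (95% interval -0.375 to 0.308), and the difference in spread was not tested.

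**Figure D2:**
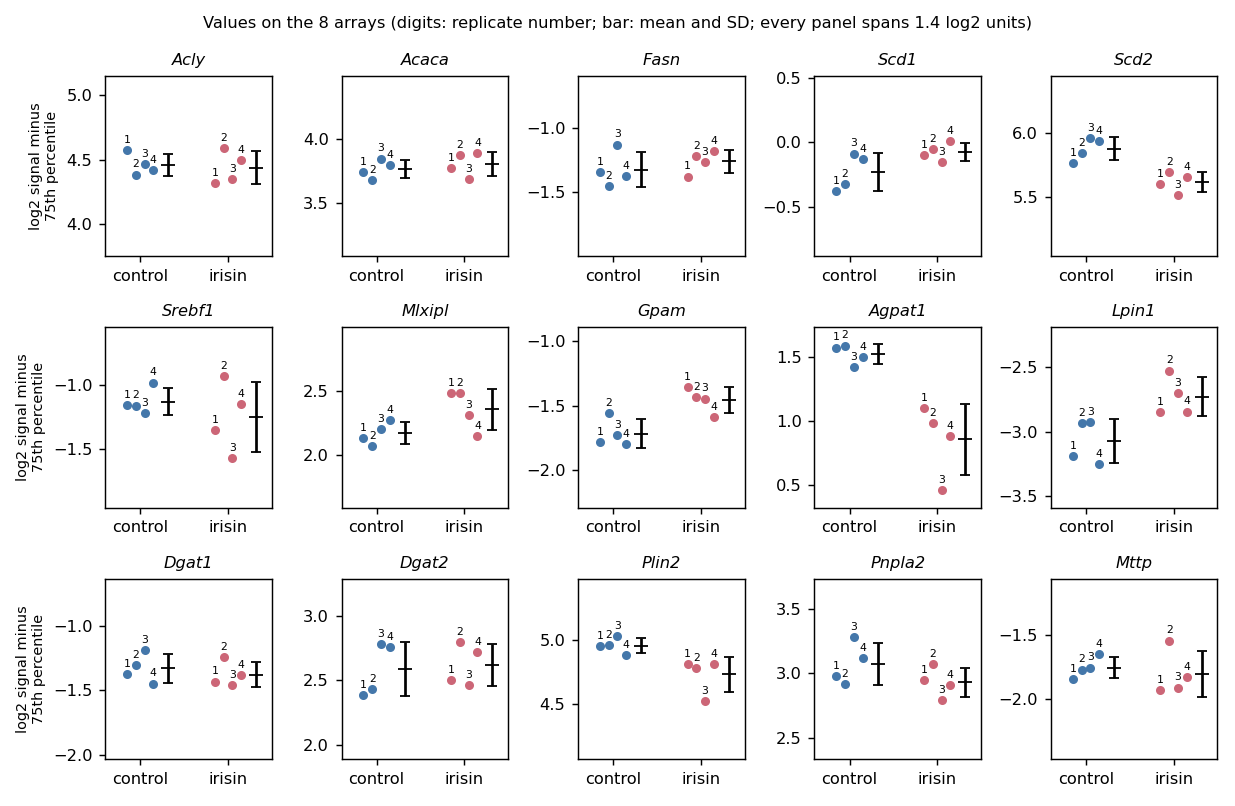
Log2 signal minus the 75th percentile of the array (vertical axis) on the 4 control arrays (blue) and the 4 irisin arrays (red) for 15 genes, with the replicate number above each point and the mean and SD beside each group. The panels have the same height in log2 units but different positions, and the groups are set apart for Agpat1, Scd2, Lpin1 and Plin2 and overlap for the others.

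The transcription factors were not called. Srebf1 read -1.16, -1.16, -1.22 and -0.98 in control and -1.35, -0.94, -1.57 and -1.15 with irisin. Irisin arrays 2 and 3 held the highest and the lowest value of all 8 arrays, and the change was -0.121 (95% interval -0.411 to 0.169, adjusted p = 0.581). Mlxipl read 2.14, 2.07, 2.20 and 2.27 in control and 2.48, 2.48, 2.31 and 2.15 with irisin. Irisin arrays 1 to 3 lay above every control array and irisin array 4 among them, and the change was 0.186 (95% interval -0.029 to 0.402, adjusted p = 0.211). The second probe of Mlxipl gave a change of -0.15 (adjusted p = 0.443), in the other direction.

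Both factors are known to act through short DNA sequences before their targets. SREBP-1 is known to bind sterol response elements and E-boxes, and ChREBP with its partner Mlx binds pairs of E-box-like sequences. In the 250 bases before each start in the RefSeq promoters of GRCm38.p6, which held 30 of the 36 genes, the E-box CACGTG was found in 5 genes (Elovl5, Lipe, Lpin2, Mgll and Mlxipl), or 16.7%, and in 6.86% of 27025 genes and 6.02% of 32851 promoters. The sterol response sequence TCACNCCAC was found in 1 of the 30 (Mlxipl), and in 1.22% of genes and 1.05% of promoters, with both strands searched for each. Of the 5 genes with an E-box, Mgll was not tested and none of the other 4 was called. The Mlxipl promoters are shown since this gene alone of the 30 held both sequences, 1 at each of its annotated starts, with the E-box or the sterol response sequence in capitals. They lie at chr5:135089640-135089889 (upstream start) and chr5:135106641-135106890 (downstream start), on the + strand of GRCm38.p6.
Mlxipl upstream start: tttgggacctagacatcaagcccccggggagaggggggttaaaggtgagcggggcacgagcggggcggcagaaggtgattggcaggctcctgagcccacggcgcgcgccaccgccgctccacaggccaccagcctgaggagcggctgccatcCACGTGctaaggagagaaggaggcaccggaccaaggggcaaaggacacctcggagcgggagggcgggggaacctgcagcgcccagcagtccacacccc
Mlxipl downstream start: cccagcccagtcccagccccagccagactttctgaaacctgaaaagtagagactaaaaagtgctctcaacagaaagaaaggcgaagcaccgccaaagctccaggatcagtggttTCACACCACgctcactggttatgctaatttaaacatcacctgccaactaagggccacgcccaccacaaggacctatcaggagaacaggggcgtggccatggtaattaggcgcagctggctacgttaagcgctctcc
A match describes the letters in this window and is not a measured binding site. The array probes are not tied to either start here.

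Triglyceride synthesis on glycerol held the gene past both thresholds and the largest difference in the other direction. Agpat1, an acyltransferase that turns lysophosphatidic acid into phosphatidic acid, read 1.57, 1.59, 1.42 and 1.495 in control and 1.10, 0.99, 0.46 and 0.88 with irisin. Every irisin array was below every control array, with irisin array 3 far below the other irisin arrays. The mean was 1.52 ± 0.0765 (SD, n = 4) in control and 0.858 ± 0.278 (SD, n = 4) with irisin, a change of -0.66 (SE 0.13, 95% interval -0.948 to -0.372, adjusted p = 0.00345 in limma). Its exact two-sided permutation p was 0.0286, the smallest that 4 arrays against 4 allow. Without irisin replicate 3 the change was -0.528 (adjusted p = 0.00333), short of 1.5-fold. Before the scaling the deposited signal of Agpat1 was 1104, 1458, 1429 and 1402 in control and 1705, 1351, 1108 and 1568 with irisin, values that overlapped. The change was -0.084 with scaling to the spike-in probes (adjusted p = 0.746) and 0.078 with no scaling (adjusted p = 0.688). Quantile normalization gave -0.662 (adjusted p = 0.01) and cyclic loess -0.639 (adjusted p = 0.00885), both called.

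The Agpat1 promoters are shown since it is the called gene. They lie on the + strand of GRCm38.p6 at chr17:34605611-34605860 (upstream start) and chr17:34608764-34609013 (downstream start), and neither holds the E-box or the sterol response sequence, so that no letters are in capitals.
Agpat1 upstream start: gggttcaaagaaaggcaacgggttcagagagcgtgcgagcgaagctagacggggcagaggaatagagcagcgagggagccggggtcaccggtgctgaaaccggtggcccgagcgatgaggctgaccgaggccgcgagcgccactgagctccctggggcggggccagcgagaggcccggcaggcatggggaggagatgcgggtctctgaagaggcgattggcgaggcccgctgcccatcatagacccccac
Agpat1 downstream start: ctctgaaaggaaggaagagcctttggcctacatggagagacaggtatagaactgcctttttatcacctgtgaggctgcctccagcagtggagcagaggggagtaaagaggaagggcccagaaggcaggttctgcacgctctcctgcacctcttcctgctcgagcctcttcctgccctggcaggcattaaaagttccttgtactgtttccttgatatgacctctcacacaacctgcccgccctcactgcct

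At their brightest probes the other acyltransferases of this step were near 0. Agpat2, the form whose loss causes lipodystrophy, had a change of 0.01 (95% interval -0.216 to 0.237) and Agpat3 of -0.022 (95% interval -0.304 to 0.26). The second probe of Agpat2 gave -0.136 (adjusted p = 0.306). Gpam, the mitochondrial acyltransferase that starts the pathway, read -1.78, -1.56, -1.73 and -1.80 in control and -1.35, -1.43, -1.45 and -1.59 with irisin. Control array 2 alone reached into the irisin values. The change of Gpam was 0.26 (SE 0.0888, adjusted p = 0.057) at this probe and 0.20 (adjusted p = 0.228) at the second. Lpin1, a phosphatidate phosphatase that makes diacylglycerol and also acts as a transcriptional coactivator, read -3.19, -2.93, -2.93 and -3.25 in control and -2.85, -2.53, -2.70 and -2.84 with irisin. All irisin values were above all control values, with the control values nearest at arrays 2 and 3. The change was 0.345 (SE 0.111, 95% interval 0.099 to 0.591, adjusted p = 0.0449), past the adjusted p alone, which 2.65% of all tested genes passed in this direction. It was 0.433 with quantile normalization (adjusted p = 0.0306), 0.33 with scaling to the median of detected probes (adjusted p = 0.0527) and 0.076 with a background correction fitted on the negative control spots (adjusted p = 0.569), an alternative chosen after seeing the data. A second Lpin1 probe was well above background on 0 control and 3 irisin arrays and was not tested.

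The enzymes of the last step, which joins the third fatty acid to diacylglycerol, overlapped between the groups. Dgat1 read -1.38, -1.31, -1.19 and -1.45 in control and -1.43, -1.24, -1.46 and -1.38 with irisin. Dgat2, which uses newly made fatty acids, read 2.39, 2.43, 2.78 and 2.76 in control and 2.5, 2.80, 2.47 and 2.72 with irisin. In both groups the Dgat2 values fell into a lower and a higher pair of arrays. The changes were -0.051 (95% interval -0.249 to 0.146) for Dgat1 and 0.031 (95% interval -0.24 to 0.302) for Dgat2. Lpin2, a second lipin, had a change of -0.095 (95% interval -0.436 to 0.245) at its brightest probe. Its other probe gave 0.197 (adjusted p = 0.667).

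The 4 droplet coat genes lay between -0.224 and -0.109, below 0 as were 64% of all tested genes, and none was called. Plin2, the main perilipin of liver droplets, read 4.95, 4.96, 5.03 and 4.88 in control and 4.81, 4.78, 4.52 and 4.81 with irisin. All irisin values were below all control values, and irisin array 3 stood apart from the other irisin arrays. The change was -0.224 (SE 0.0898, 95% interval -0.424 to -0.025, adjusted p = 0.102), close to the -0.204 of the brightest decile of probes, to which Plin2 belongs. It was -0.07 with quantile normalization and -0.076 with cyclic loess. Plin3, which coats small droplets, had a change of -0.181 (adjusted p = 0.265), Plin5, which ties droplets to mitochondria, of -0.198 (adjusted p = 0.443), and Cidec, which helps droplets fuse, of -0.109 (adjusted p = 0.457).

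The 4 tested lipases and partners were also below 0, beside the same 64% of all tested genes, and none was called. Pnpla2, adipose triglyceride lipase, read 2.98, 2.92, 3.28 and 3.12 in control and 2.95, 3.07, 2.79 and 2.91 with irisin. The groups overlapped, with control array 3 the highest and irisin array 3 the lowest, and the change was -0.142 (95% interval -0.369 to 0.084, adjusted p = 0.378). Abhd5, the coactivator of Pnpla2 also called CGI-58, had a change of -0.207 (adjusted p = 0.133) at the brightest probe, where every irisin array was below every control array. Its other probes gave 0.122 (adjusted p = 0.278), with every irisin array above every control array, and 0.064, with overlap, so that the probes of this gene separate the groups in opposite directions. Lipe, hormone-sensitive lipase, had a change of -0.141 (adjusted p = 0.523) and Pnpla3, a droplet protein tied to fatty liver, of -0.029 (adjusted p = 0.899). Mgll, which removes the last fatty acid from glycerol, was not tested: its brightest probe was well above background on 1 control and 3 irisin arrays, and its other 3 probes on 0.

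Genes of uptake, binding and export showed small differences, from -0.067 to 0.044. Mttp, which loads triglyceride onto apolipoprotein B, read -1.85, -1.77, -1.76 and -1.65 in control and -1.93, -1.55, -1.91 and -1.83 with irisin. Irisin array 2 was the highest of all 8 and irisin arrays 1 and 3 the lowest, and the change was -0.048 (95% interval -0.272 to 0.177). Fabp1, the liver fatty acid binding protein, had a change of 0.044 (95% interval -0.148 to 0.237) and Fabp5, the epidermal form, of -0.067 (95% interval -0.273 to 0.139). Cd36, a fatty acid translocase, was well above background on 2 control and 3 irisin arrays and was not tested.

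Of the 10 genes with several tested probes, the probes gave changes of the same sign in 4 and of opposite signs in 6. The latter are Abhd5, Acaca, Agpat2, Lpin2, Me1 and Mlxipl. The dimmer probes of Acly (-0.31, adjusted p = 0.0566) and Acaca (-0.303 and -0.434, adjusted p = 0.266 and 0.102) were further below 0 than the brightest probe of each gene, and belong to deciles 2 and 3 of the signal, with median changes of -0.332 and -0.152. No probe of these 10 genes passed both thresholds.

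Irisin arrays 2 and 3 stood at the ends of the irisin group. On irisin array 2 the median of the 34 genes was 0.078 above their control means, against -0.009 for all tested genes, and on irisin array 3 it was -0.181, against -0.132. Irisin array 2 was the highest of the irisin arrays in 20 of 34 genes, beside 50.6% of all genes, and irisin array 3 the lowest in 20, beside 34.3%. The median change was -0.132 without irisin replicate 2 and -0.016 without irisin replicate 3, so that its size rests on single arrays.

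**Figure D3:**
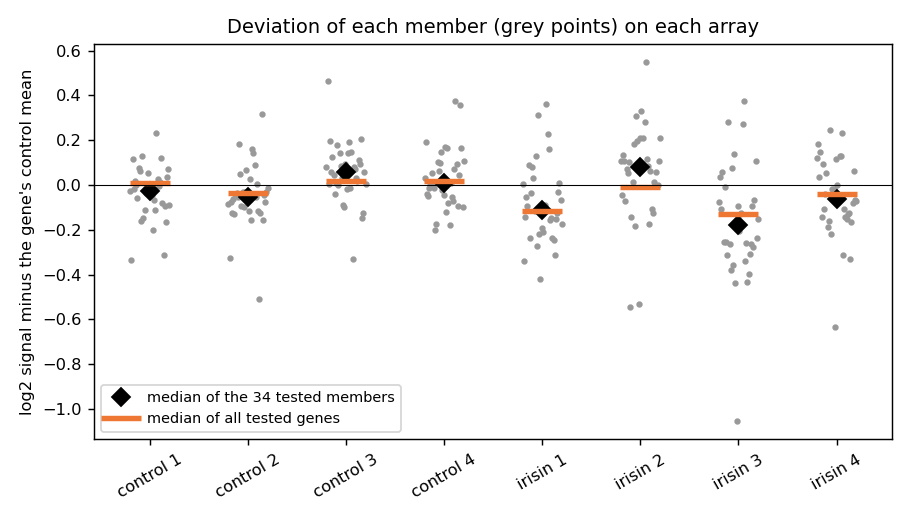
Log2 signal of each of the 34 tested genes minus its mean on the control arrays (vertical axis, grey points) on each of the 8 arrays, with the median of the 34 (diamonds) and of all tested genes (orange lines). The diamond is highest on irisin array 2, at 0.078, and lowest on irisin array 3, at -0.181, and the lowest grey point is Agpat1 on irisin array 3.

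Ratios between members of 1 gene family on the same array do not depend on scaling an array by 1 factor. A total of 16 such pairs were compared with exact two-sided permutation tests, adjusted over the 16. The ratio of Scd1 to Scd2 was -6.14, -6.17, -6.05 and -6.07 on the log2 scale in control and -5.70, -5.74, -5.68 and -5.65 with irisin. Every irisin array was above every control array, with a gap far wider than the spread within each group. The difference was 0.415 (SE 0.0368, exact permutation p = 0.0286, adjusted p = 0.152). The Scd1 probe lies in signal decile 6, with a median change of 0.002, and the Scd2 probe in decile 10, with -0.204. The difference kept its sign but was smaller where the scaling depended on signal. It was 0.153 (quantile normalization), 0.223 (cyclic loess) and 0.268 (correction on negative control spots). The ratio of Agpat1 to Agpat2 was -2.55, -2.48, -2.79 and -2.58 in control and -2.83, -3.34, -3.56 and -3.35 with irisin. Irisin array 1 lay close to control array 3 and the other irisin arrays well below. The difference was -0.67 (SE 0.171, exact permutation p = 0.0286, adjusted p = 0.152), and that of Agpat1 to Agpat3 was -0.638 (SE 0.173, p = 0.0286, adjusted p = 0.152). The last 2 pairs share Agpat1 and are not independent, since Agpat1 changed by -0.66, Agpat2 by 0.01 and Agpat3 by -0.022. With 16 pairs and 4 arrays a group, none of these p-values passes 0.05 after adjustment. In the other 13 pairs the groups overlapped, among them Dgat1 to Dgat2 (-0.082, SE 0.117), Plin2 to Plin3 (-0.044, SE 0.0893) and Lpin1 to Lpin2 (0.44, SE 0.226).

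**Figure D4:**
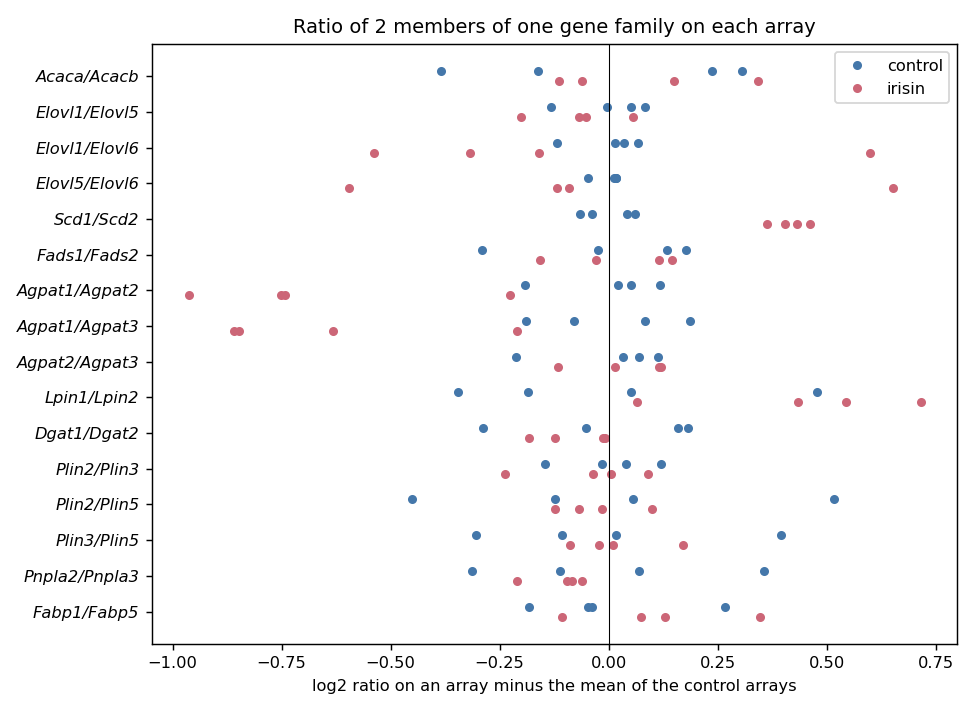
Log2 ratio of 2 genes of 1 family on each array minus the mean of the control arrays (horizontal axis), 1 pair per line, with control arrays in blue and irisin arrays in red. The groups are apart for Scd1/Scd2, at a difference of 0.415, and for Agpat1/Agpat2 and Agpat1/Agpat3, which share Agpat1, at -0.67 and -0.638.

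The remaining genes of the pathway, a list of 61 further enzymes, regulators and droplet proteins, held few calls. Of 55 tested, 0 were up-regulated and 2 were down-regulated (Slc27a2 and Slc27a5), beside 0.531% and 10.2% of all genes, with 53 not called and a median change of -0.024. At an unadjusted p under 0.05, 3 of the 55 were higher and 9 lower, beside 5.94% and 23.5% of all genes. Slc27a2, a fatty acid transporter and very long chain acyl-CoA synthetase, read -5.63, -5.66, -5.44 and -5.43 in control and -6.41, -6.55, -6.14 and -6.18 with irisin. The groups did not overlap, and the change was -0.781 (adjusted p = 0.000568). Slc27a5, which activates bile acids and fatty acids, read -5.44, -5.53, -6.01 and -5.32 in control and -6.37, -5.78, -6.29 and -6.22 with irisin. Irisin array 2 lay above control array 3, and the change was -0.588 (adjusted p = 0.0253). Both probes belong to the dimmest decile of the tested probes, whose median change was -0.513, and neither was called with quantile normalization (-0.308 and -0.134) or cyclic loess (-0.311 and -0.124). Slc27a5 was called in 2 of the 8 fits that left out 1 array.

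How the 34 genes compare with the control cells depends on what the arrays are scaled to. With 8 spike-in probes, RNA added in the laboratory, as the reference, 10 of the 34 were up-regulated (Acaca, Agpat2, Dgat2, Fabp1, Fasn, Gpam, Lpin1, Mlxipl, Scd1 and Thrsp), beside 33.3% of all genes. With no scaling 27 were up-regulated, beside 66.8%. The median change of the 34 was then 0.517 and 0.679, and that of all tested genes 0.512 and 0.674. Both settings, like the 75th percentile, move all probes of an array by the same amount. The difference between the medians is therefore the same by construction and says nothing about these genes. Processing that depends on signal can change it. The medians were 0.049 and 0.005 (all genes) with quantile normalization and 0.069 and 0.023 with cyclic loess. They were -0.05 and 0.054 with normexp background correction, and -0.094 and -0.106 with normexp on negative control spots.

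**Figure D5:**
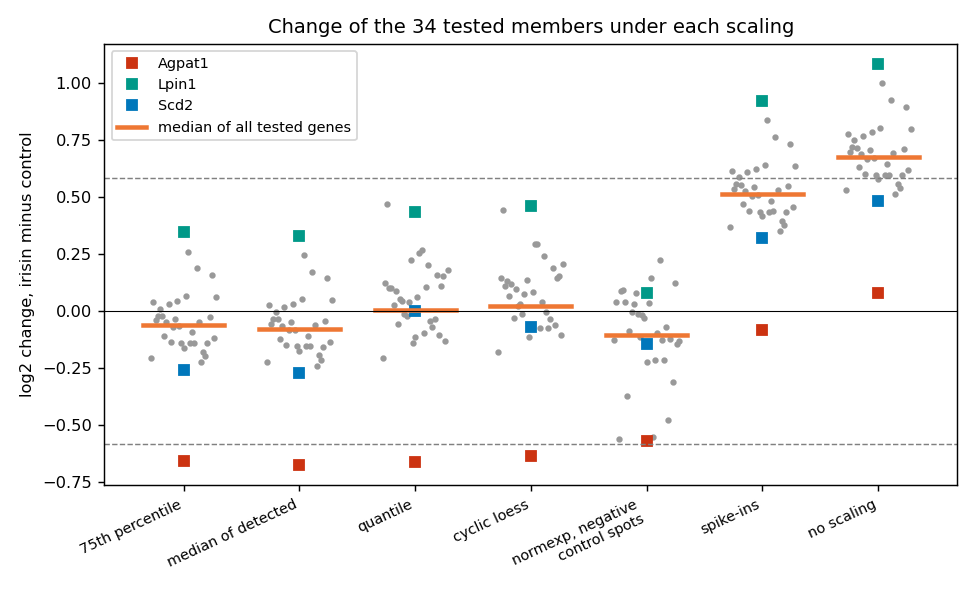
Change of the 34 tested genes (vertical axis, log2, irisin minus control) under 7 ways of scaling or background correction, with Agpat1, Lpin1 and Scd2 in color, the other genes in grey and the median of all tested genes as an orange line. Dashed lines mark 1.5-fold. The whole set shifts with the orange line, to 0.512 with spike-ins and 0.674 with no scaling, since these settings move every gene alike. Agpat1 is the lowest in each panel position. Among settings that scale an array by 1 factor, the order of the genes is the same by construction.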

How the data were processed

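RNA of 8 AML12 samples, 4 per group, was measured on 1 one-color array each, and samples were grouped by their deposited labels. The authors deposited signal intensity on a linear scale from Agilent Feature Extraction 12.0.3.1, with background subtracted and spatial trends corrected but no normalization between arrays. A deposited value table holds the same signals, averaged over the spots of a probe (largest deviation 5e-04%). The array design in the file headers is not the one in the methods of the paper, which describe liver arrays.

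Control spots and spots marked as outliers (at most 0.463% of an array) were left out, no spot was saturated, and spots were averaged to 39429 probes. From each log2 signal the log2 of the 75th percentile of its array was subtracted. Accessions were named through the RefSeq table of GRCm38.p6 (72.7% of probes). Headers give mm9, so no probe coordinates are printed. In all, 24091 probes that stood well above background throughout at least 1 group were fitted in R 4.3.3 with lmFit and eBayes of limma 3.58.1, with Benjamini-Hochberg adjustment over all of them. A call needed 1.5-fold and an adjusted p under 0.05, the thresholds of the methods. The probe of highest mean signal stood for its gene (14310 genes). The number of arrays limits the precision. Scripts were tested on simulated data.

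The genes, lists and tests were chosen with earlier results of these data known. All 36 genes are named. Values on every array are given for called genes and 14 fixed genes where tested, and those of Lpin1 and Elovl6, the genes named from the overlap and spread, and the family pairs were added after their values were seen.

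Alternatives were normexp background correction (offset 50) on the median spot signal, quantile normalization, cyclic loess, scaling to the median of detected probes or to 8 spike-in probes, no scaling, the value table, other filters on dim probes, keeping marked spots, robust eBayes with an intensity trend, a replicate block, leaving out each array, other thresholds, the methods' ANOVA and averaging the probes of a gene. Normexp on negative control spots and all alternatives for the family ratios were chosen after seeing the data.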

Additional observations from a re-analysis of the deposited data

Results flagged for a closer look

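Of 68 groups of 4 arrays checked, 34 genes in each of the 2 groups, 1 held an array that stood apart from the rest by Dixon's criterion at the 95% level, which chance passes in about 1 of 20 groups. This was Plin2 on irisin array 3, at 4.524 on the log2 scale relative to the 75th percentile, against 4.78 to 4.812 on the other irisin arrays. The gap was 0.886 of the range of the 4 values. Without irisin replicate 3 the change of Plin2 was -0.155, the smallest of the fits that left out 1 array.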

How the results depend on the processing

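Up-regulated genes of the 34 numbered 27 with no scaling, 10 with spike-in scaling, 1 with the adjusted p alone and 0 with every other alternative run. The count of 1 down-regulated gene became 0 with normexp (0% of all genes called down, and 0% up), normexp on negative control spots (13.5%), a 2-fold threshold (2.68%), no scaling (0.566%) and spike-in scaling (1.29%), and 2 with the adjusted p alone (17.9%). Since normexp called no gene at all, its count says nothing about these genes. With each array left out in turn it ranged from 0 to 1, the 0 being the fit without irisin replicate 3, and the up-regulated count stayed at 0. Of the other pathway genes, no scaling gave 40 up-regulated and spike-in scaling 19, beside 66.8% and 33.3% of all genes. Their down-regulated count of 2 became 0 with normexp, quantile normalization (3.82% of all genes), cyclic loess (3.41%), spike-in scaling, no scaling and a 2-fold threshold, 4 with no filter on dim probes (29.0%) and with normexp on negative control spots, 6 with the adjusted p alone and 1 with the methods' ANOVA (9.41%), and ranged from 1 to 3 with arrays left out. The median change of the 34 genes was -0.059 with the 75th percentile, beside -0.064 for all tested genes. It was 0.049 with quantile normalization (all genes 0.005), 0.069 with cyclic loess (0.023) and -0.05 with normexp (0.054). With no scaling it was 0.679 (0.674) and with spike-in scaling 0.517 (0.512). With arrays left out it ran from -0.132 to -0.016. The cause of these moves was not tested.

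With no scaling all 34 genes were above 0. Of those below 0 with the 75th percentile, the ones not called with either scaling were Abhd5 0.531, Fads2 0.577, Plin2 0.514, Plin3 0.558, Plin5 0.54 and Scd2 0.48, and the ones called with 1 of the scalings, with Slc27a5 beside them, were Acacb 0.697, Acly 0.717, Agpat1 0.078, Agpat3 0.716, Cidec 0.629, Dgat1 0.687, Elovl1 0.601, Elovl5 0.667, Elovl6 0.705, Fabp5 0.672, Fads1 0.597, Lipe 0.597, Lpin2 0.643, Me1 0.598, Mttp 0.691, Pnpla2 0.596, Pnpla3 0.709, Slc27a5 0.15 and Srebf1 0.617. With normexp Slc27a2 was at 0.466 and Slc27a5 at 0.458, but this correction placed the 5th percentile of the signal at 358.7 and 453.8 on irisin arrays 2 and 4, against 54 to 58.99 on the other arrays. Agpat1 was at -0.684 with normexp (adjusted p = 0.094) and at -0.573 with normexp on negative control spots (adjusted p = 0.000264, short of 1.5-fold), and over all alternatives its adjusted p ran from 0.000264 to 0.746.

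The replicate number is the position of the array on its slide and did not pair the samples, since same-numbered arrays deviated from their group means with correlations of 0.109, -0.348, -0.125 and 0.165. With the replicate number as a block, 0 of the 34 genes were up-regulated and 1 was down-regulated, and 0 and 2 of the other pathway genes, the counts without the block, with a median change of -0.059. The adjusted p of Scd2 was 0.114 in that fit. Signal over background limits Cd36 and Mgll, which could not be tested, and Acacb, Lipe and Plin5, whose probes were in the 2 dimmest deciles.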
